A study of Mus musculus with 6 samples.

Results

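Markers of M2 macrophages, the alternatively activated state that interleukin-4 (IL-4) and interleukin-13 (IL-13) induce, were read in RNA sequencing of mouse bone marrow-derived macrophages (BMDMs) without or with zoledronic acid (ZA). The markers are 10 genes, Arg1, Mrc1, Chil3, Retnla, Cd163, Il10, Clec10a, Mgl2, Il4ra and Tgfb1, taken by symbol from the 35434 genes of the deposited table, and all 10 were found in it. Of these, 7 had a mean of at least 1 FPKM (fragments scaled to the length of the gene and to the total of the library) over the 6 libraries and were tested, while Arg1, Retnla and Cd163 lay under that limit. ZA is a nitrogen-containing bisphosphonate that inhibits farnesyl diphosphate synthase in the mevalonate pathway and is given against bone resorption. According to the methods, femoral marrow of C57BL/6 mice was differentiated for 7 days with 10 ng/ml macrophage colony-stimulating factor (M-CSF). The 3 Ctrl libraries came from cultures without ZA, and the 3 ZA libraries from cultures taken 12 h into ZA stimulation. The labels give neither the ZA dose nor whether the cultures came from separate mice, so p-values measure the spread between these libraries, which may be technical. The methods use IL-4 as a separate polarizing stimulus, and the labels of these libraries do not name it. The comparison of ZA with Ctrl asks whether ZA changed the mRNA of these markers.

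When IL-4 binds its receptor on a macrophage, JAK kinases phosphorylate the transcription factor STAT6, which enters the nucleus and switches on genes such as Arg1, Chil3, Retnla, Mrc1, Clec10a and Mgl2. Macrophages in this state are known for matrix deposition, wound repair and defence against helminths, as opposed to the LPS-induced M1 state. Cd163, Il10 and Tgfb1 are usually counted among the markers as well, although IL-10 and glucocorticoids, rather than IL-4, are the best known inducers of Cd163.

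The libraries held between 41230600 and 42155808 fragments. All 10 macrophage markers (among them Adgre1, Csf1r, Cd68 and Lyz2) were above 1 FPKM on average, and their summed level was 24576 to 28483 FPKM in Ctrl and 25492 to 29072 in ZA. Of these markers, 9 were higher with ZA, 5 of them at an unadjusted limma p under 0.05, where 7.5% of all genes tested were. Against 10 markers of neutrophils and myeloid progenitors, the sum was 68.4 to 84.4 FPKM in Ctrl and 64.6 to 70.6 in ZA, with Ly6g at 0 in every library. The 8 fibroblast and stromal markers summed to 20.3 to 35.9 FPKM in Ctrl and 18.0 to 25.8 in ZA. Sums of 8 markers each were 2.53 to 2.74 FPKM over all libraries for dendritic cells, with 0 to 2 fragments of Xcr1, and 4.68 to 6.49 for eosinophils, basophils and mast cells. Kit alone, at 1.57 to 1.94 FPKM, made up most of the dendritic cell sum and was the only marker of that list above 1 FPKM on average. The sum of 7 markers of T, B and NK cells was 0.504 to 1.08 FPKM. Among the markers high enough to test, 6 of 7 were lower with ZA for neutrophils and progenitors, 5 of 5 for stroma and 3 of 3 for eosinophils, basophils and mast cells. At an unadjusted limma p under 0.05 were 4, 1 and 1 of these, where 4.85% of all genes tested were lower. In such bulk RNA, fewer cells of a type and less RNA per cell cannot be told apart.

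None of the 7 markers tested passed an adjusted p of 0.05 with limma, where 36 of 9800 genes (0.367%) did, 20 of them higher (0.204%) and 16 lower (0.163%) with ZA. Of the markers, 0 had an unadjusted p under 0.05, where 12.3% of genes did. Means were higher with ZA for 6 of the 7 and lower for 1, Chil3. The Ctrl and ZA libraries overlapped for all 7, whereas they did not overlap for 18.1% of the genes tested, 11.4% higher and 6.76% lower with ZA. The median difference on log2(FPKM + 1) was 0.04 for the 7 markers and 0.01 for all genes tested, and the median size of the difference regardless of direction was 0.046 and 0.041.

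**Figure D1:**
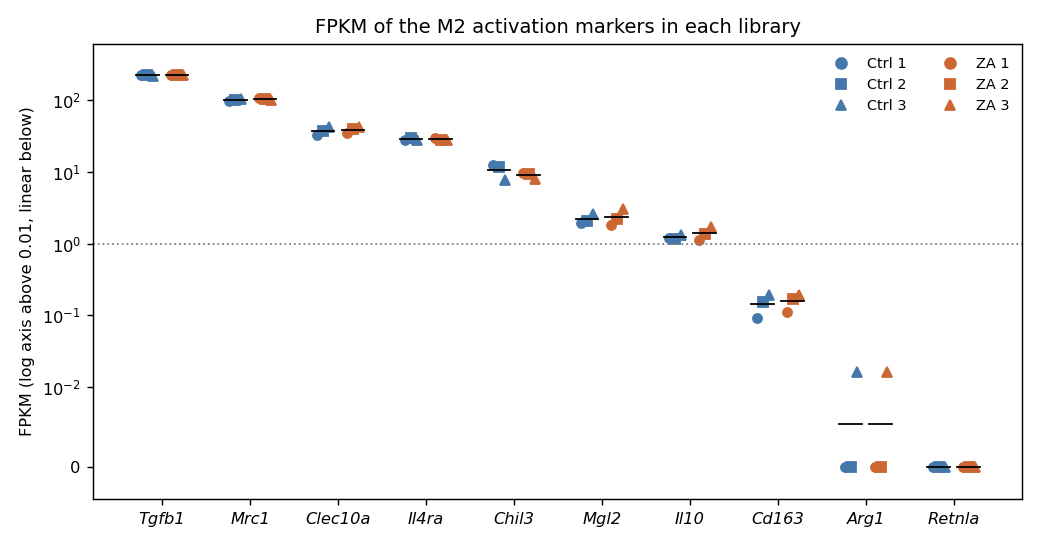
FPKM of each of the 10 markers (horizontal axis, ordered by mean) in each library, on a log axis above 0.01 FPKM that is linear below it. Blue points are Ctrl, orange points are ZA, shapes give the replicate number, bars are group means (n = 3) and the dotted line is the limit of 1 FPKM for testing. The levels run from about 221.3 FPKM for Tgfb1 to 0 for Retnla, while the Ctrl and ZA points of each gene lie side by side.

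Il4ra encodes the receptor chain that binds IL-4 and is shared by the receptors for IL-4 and IL-13, and STAT6 raises it in turn. Its level was 27.8, 29.2 and 27.4 FPKM in Ctrl 1, 2 and 3 and 29.1, 27.2 and 28.1 FPKM in ZA 1, 2 and 3. The lowest and the highest of the 6 values lay in opposite groups, and the ranges covered each other almost completely. Group means were 28.1 ± 0.925 FPKM in Ctrl and 28.1 ± 0.967 in ZA (SD, n = 3 each). The difference of ZA minus Ctrl on log2(FPKM + 1) was 0.0011 (SE 0.036, 95% interval -0.081 to 0.083, limma adjusted p = 0.996).

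Among the receptor genes of the 10 markers, Mrc1, the mannose receptor (CD206) used for endocytosis of mannosylated glycoproteins, was the most abundant. Its level was 96.0, 98.1 and 103.7 FPKM in Ctrl and 105.8, 101.3 and 100.2 FPKM in ZA, in the order of the replicate numbers. The highest Ctrl library lay above 2 of the 3 ZA libraries, and only ZA 1 exceeded all of Ctrl. Between 21268 and 23193 fragments per library stood behind these values. Means were 99.3 ± 3.98 FPKM in Ctrl and 102.4 ± 2.97 in ZA, 3.16% higher. The log2 difference was 0.04 (SE 0.035, 95% interval -0.035 to 0.12, limma adjusted p = 0.635), the smallest adjusted p among the markers. It ran from 0.021 without Ctrl 1 or without ZA 1 to 0.076 without Ctrl 3 (limma adjusted p = 0.402).

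Clec10a (Mgl1) and Mgl2 encode neighbouring C-type lectins that bind galactose and N-acetylgalactosamine. For Clec10a the values were 32.6, 37.2 and 41.8 FPKM in Ctrl and 34.7, 39.2 and 42.2 in ZA. The libraries numbered 1 were the lowest and those numbered 3 the highest in both groups, so the groups interleaved. The log2 difference was 0.06 (SE 0.093, 95% interval -0.16 to 0.27, limma adjusted p = 0.845), with means of 37.2 ± 4.62 and 38.7 ± 3.77 FPKM.

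Mgl2 stood at a much lower level, 1.95, 2.09 and 2.56 FPKM in Ctrl and 1.80, 2.20 and 2.99 in ZA. The same order of the numbers appeared, and the lowest as well as the highest of the 6 values belonged to ZA. With 147 to 250 fragments per library and means of 2.20 ± 0.321 and 2.33 ± 0.608 FPKM, the log2 difference was 0.05 (SE 0.13, 95% interval -0.24 to 0.34, limma adjusted p = 0.916). Clec10a exceeded Mgl2 by 16.7, 17.8 and 16.3 times in Ctrl and by 19.3, 17.8 and 14.1 times in ZA. Their transcripts are alike, with 96.4% identity over 727 aligned bases, and 1.56% of the 150-base stretches of Clec10a, like 2.29% of those of Mgl2, occur in the other gene. How the counting assigned such fragments is not given in the sources used here, which makes the low value of Mgl2 the less certain of the pair.

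Cd163, the scavenger receptor for haptoglobin-haemoglobin complexes on tissue macrophages, was detected in every library but far under the limit for testing. It measured 0.0905, 0.155 and 0.191 FPKM in Ctrl and 0.113, 0.171 and 0.195 FPKM in ZA, from 17 to 37 fragments per library. Both libraries numbered 1 were lowest and both numbered 3 highest, as for the lectins. Means of 0.145 ± 0.0510 and 0.159 ± 0.0420 FPKM gave p = 0.6 in an exact two-sided permutation test, where 3 against 3 libraries cannot go below 0.1. In the limma fit without a limit on low values, over 19380 genes, the log2 difference was 0.018 (95% interval -0.084 to 0.12, adjusted p = 0.916).

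Arg1, Chil3 and Retnla are the effector genes by which M2 cells are most often recognized in the mouse, and they stood far apart here. Arg1, the arginase that turns arginine into ornithine and urea, was listed at 0 in 4 libraries. The others, Ctrl 3 and ZA 3, held 1 fragment each, or 0.0162 and 0.0161 FPKM. Taking 3 fragments as the least that the depth can show, Arg1 was below 0.0482 to 0.0493 FPKM in each library, so no difference between the groups was detectable at this depth. These limits, like those below, cover counting error only.

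Retnla (Fizz1, RELM-alpha), a secreted cysteine-rich protein, was listed at 0 in all 6 libraries. A transcript of 599 bases, the length of Retnla in the GENCODE M21 annotation, would reach 0.119 to 0.121 FPKM with 3 fragments. Neither Arg1 nor Retnla therefore had a level that ZA could be seen to lower.

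Chil3 (Ym1), a secreted chitinase-like lectin, was the only marker of this trio with a measurable level. Its values were 12.2, 11.5 and 7.56 FPKM in Ctrl and 9.57, 9.36 and 7.94 in ZA. Ctrl 1 and Ctrl 2 were above every ZA library, while Ctrl 3 was the lowest of all 6. Means were 10.4 ± 2.51 FPKM in Ctrl and 8.96 ± 0.883 in ZA, a ratio of 0.859, from 477 to 771 fragments per library. The log2 difference was -0.18 (SE 0.15, 95% interval -0.52 to 0.17, limma adjusted p = 0.676), and its size depended on single libraries. It was -0.37 with Ctrl 3 left out (limma adjusted p = 0.140), but -0.057 without Ctrl 1 and -0.10 without Ctrl 2 or without ZA 3. Neutrophils and their progenitors make Chil3 too. The summed neutrophil and progenitor markers were 84.4, 74.3 and 68.4 FPKM in Ctrl and 68.5, 70.6 and 64.6 in ZA, so they were highest in the same 2 Ctrl libraries. Csf3r made up a large part of each sum, at 33.8 to 35.5 FPKM, and was the only tested marker of this list that was not lower (log2 difference 0.011). Of the 7 such markers tested, 4 were lower with ZA at an unadjusted limma p under 0.05, against 4.85% of all genes tested. These were Mpo, Elane, Prtn3 and Ngp, whose groups did not overlap. In these 4, Ctrl 3 thus lay above every ZA library, whereas for Chil3 it was the lowest of all 6. S100a9 had Ctrl 3 lowest as well, with 23.1, 17.3 and 13.3 FPKM in Ctrl and 14.5, 16.8 and 13.5 in ZA. The part of neutrophils and progenitors in the Chil3 values was not tested. Chil3 shares 94.3% of 1540 aligned bases with Chil4, which was listed at 0 in all libraries and has no 150-base stretch in common with it.

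Because Chil3 was expressed and Retnla was at 0 although both are textbook targets of STAT6, the 250 bases upstream of each start are shown from RefSeq (GRCm38.p6). The table held promoters of 7 of the 10 markers. Chil3 is at chr3:106167565-106167814 on the minus strand and Retnla at chr16:48842359-48842608 on the plus strand. Capitals mark TTCNNNGAA, the spacing used by most STAT proteins, in Chil3, and the same ends around 4 bases, the wider spacing that STAT6 prefers, together with GAGGAAGT on the reverse strand, a site form of the myeloid factor PU.1, in Retnla.
Chil3: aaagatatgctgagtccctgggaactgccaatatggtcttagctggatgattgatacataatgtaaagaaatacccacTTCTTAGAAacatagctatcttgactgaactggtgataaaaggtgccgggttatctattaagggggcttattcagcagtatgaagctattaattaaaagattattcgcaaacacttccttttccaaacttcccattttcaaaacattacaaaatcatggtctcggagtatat
Retnla: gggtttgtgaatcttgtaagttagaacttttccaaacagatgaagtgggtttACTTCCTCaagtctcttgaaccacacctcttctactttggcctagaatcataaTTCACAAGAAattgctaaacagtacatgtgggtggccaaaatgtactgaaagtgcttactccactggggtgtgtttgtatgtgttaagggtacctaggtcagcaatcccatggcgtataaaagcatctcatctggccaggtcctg
The Chil3 match lies 172 to 164 bases before the start, and the Retnla matches 145 to 136 and 198 to 191 bases before it. Searched on both strands over 32851 promoters of 300 bases, TTCNNNGAA occurred in 8.30%, TTC and GAA around 4 bases in 6.95% and GAGGAAGT in 3.20%, and each occurred in 1 of the 7 promoters of markers. The matches in Retnla did not overlap. These are matches of letters, and no binding was measured.

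The cytokines closed the list at opposite ends of the range. Tgfb1, transforming growth factor beta 1, a latent cytokine that restrains immune cells and drives matrix formation, was the most abundant marker and ranked 239 of 9800 genes by mean FPKM. It measured 221.4, 220.4 and 217.5 FPKM in Ctrl and 221.0, 225.0 and 222.4 in ZA. ZA 2 and ZA 3 lay just above all Ctrl libraries and ZA 1 among them. Means were 219.8 ± 2.0 and 222.8 ± 2.04 FPKM, and the log2 difference was 0.02 (SE 0.020, 95% interval -0.026 to 0.065, limma adjusted p = 0.726). Its spread within groups was among the smallest measured, with only 1.56% of the genes tested below it.

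Il10, the anti-inflammatory cytokine that signals through STAT3, was barely above the limit for testing, at rank 9443. Its values were 1.19, 1.15 and 1.30 FPKM in Ctrl and 1.12, 1.37 and 1.70 in ZA. ZA 2 and ZA 3 exceeded all of Ctrl, and ZA 1 was the lowest library. From 97 to 150 fragments per library, the means were 1.21 ± 0.0797 and 1.40 ± 0.289 FPKM, a ratio of 1.15. The log2 difference was 0.11 (SE 0.086, 95% interval -0.091 to 0.31, limma adjusted p = 0.653), on a scale that understates the change of low genes because 1 is added to each value. It was 0.018 without ZA 3 and 0.19 without ZA 1 (limma adjusted p = 0.317).

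**Figure D2:**
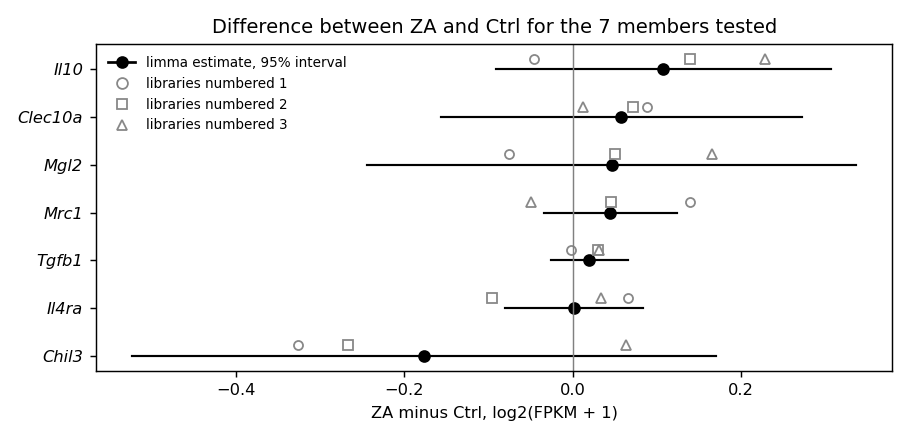
Difference of ZA minus Ctrl on log2(FPKM + 1) for the 7 markers tested (vertical axis). Filled points are limma estimates with 95% intervals, and open symbols are the differences between the ZA and Ctrl libraries of the same number, drawn for their spread only. All 7 intervals include 0, from the narrow one of Tgfb1 (-0.026 to 0.065) to the wide ones of Mgl2 and Chil3.

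Ordered by mean FPKM, which is scaled by gene length, the markers ran from Tgfb1 (221.3) through Mrc1 (100.8), Clec10a (37.9), Il4ra (28.1), Chil3 (9.69), Mgl2 (2.26) and Il10 (1.30) to Cd163 (0.152), Arg1 and Retnla. The ranges of neighbours in this order, taken over the 6 libraries, did not overlap, except for Arg1 and Retnla at or near 0. The most abundant of the markers tested exceeded the least abundant by 170 times, while the ratio of the ZA to the Ctrl mean of these markers ran from 0.859 (Chil3) to 1.15 (Il10). By contrast, libraries of 1 group differed by up to 1.66 times for Mgl2 and 1.62 times for Chil3.

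The spread between libraries of the same group was unequal among the markers. For Chil3, Mgl2, Clec10a and Il10 it was larger than for 99.1%, 98.2%, 96.2% and 93.3% of the genes tested, and for Mrc1 and Il4ra it was larger than for 49.2% and 44.9%. In 3 of the 7 markers, Chil3, Clec10a and Mgl2, the numbered libraries stood in the same order in Ctrl and in ZA, as they did in 21.6% of all genes tested. In Chil3 the libraries numbered 3 were lowest in both groups (0.39 and 0.15 below the group mean on log2), and in Clec10a they were highest (0.17 and 0.13 above it). Beside these, the summed stromal markers were 35.9, 28.1 and 20.3 FPKM in Ctrl and 25.8, 22.3 and 18.0 in ZA, lowest in both libraries numbered 3. The macrophage sum was highest in those libraries, at 28483 and 29072 FPKM. Lyz2 made up most of this sum, with 20472, 22545 and 24406 FPKM in Ctrl and 21272, 22833 and 24669 in ZA. Not all macrophage markers had this order, since Csf1r was at 777, 767 and 772 FPKM in Ctrl and 825, 832 and 848 in ZA. The part of the cells behind these sums in the levels of Chil3, Clec10a and Mgl2 was not tested.

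**Figure D3:**
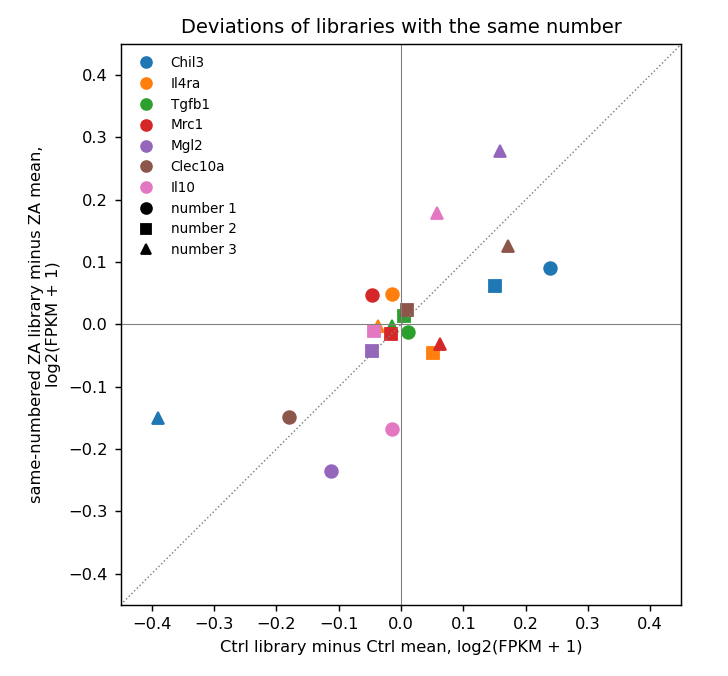
For each of the 7 markers tested (colours) and each replicate number (shapes), the horizontal axis gives the Ctrl library minus the Ctrl mean and the vertical axis the ZA library of the same number minus the ZA mean, both on log2(FPKM + 1). The dotted line marks equal deviations. Points of Chil3, Clec10a, Mgl2 and Il10 lie below 0 on both axes or above 0 on both, from -0.39 and -0.15 for Chil3 number 3 to 0.16 and 0.28 for Mgl2 number 3, and those of Tgfb1, Il4ra and Mrc1 stay near the centre.

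Relatives of the markers were low or at 0. Of 19 such genes 18 were in the table, none reached 1 FPKM, and 8 were listed at 0 in every library, namely Chil4, Chil5, Chil6, Chit1, Retn, Retnlb, Il20 and Il24. Arg2, the mitochondrial arginase, was at 0.553 ± 0.183 FPKM in Ctrl and 0.660 ± 0.144 in ZA from 25 to 48 fragments, and so above Arg1. Mrc2, the collagen-binding relative of Mrc1, measured 0.569 ± 0.247 and 0.482 ± 0.0610 FPKM. Asgr2, a subunit of the asialoglycoprotein receptor, measured 0.481 ± 0.135 and 0.437 ± 0.0611 FPKM, and Asgr1 had 1 fragment in 1 library.

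Tgfb3 stood at 0.241 ± 0.0740 FPKM in Ctrl and 0.222 ± 0.0311 in ZA, and Tgfb2 at 0.0601 ± 0.00599 and 0.0460 ± 0.0217, so that Tgfb1 held nearly all of the FPKM of the 3 TGF-beta ligands. Cd209a had only 3 to 10 fragments per library, at 0.0647 ± 0.0163 FPKM in Ctrl and 0.140 ± 0.0363 in ZA, without overlap. Chil1, with 3 to 6 fragments, was at 0.0733 ± 0.0160 and 0.0459 ± 0.00839 FPKM, and its groups overlapped. Retnlg had 0 to 4 fragments and Il19 0 to 1. Since all relatives lay under the limit of 1 FPKM, no difference between the groups was tested for them.

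The genes that carry, answer or accompany these markers were read in 7 further lists, of which 89 genes were tested. None passed an adjusted p of 0.05 with limma. At an unadjusted p under 0.05, 9 were higher with ZA (10.1%, against 7.5% of all genes tested) and 16 were lower (18.0%, against 4.85%). The median difference of the 89 genes was -0.025 on log2(FPKM + 1), against 0.010 for all genes tested. Since the lists were chosen with earlier results of these data known, these shares are no independent comparison. The genes named below are, per list, the 3 whose moderated statistic was largest, and any others were chosen after their values were seen.

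Signalling by IL-4 and IL-13 started from ligands that were almost absent, since Il13 was at 0 in all libraries and Il4 had at most 1 fragment. The receptor partner Il13ra1 was present, at 7.90 ± 0.352 FPKM in Ctrl and 8.14 ± 0.346 in ZA. The transcription factor gene Stat6 was at 71.3 ± 0.694 and 73.3 ± 1.31. Of 10 genes tested, 9 were higher, though Jak1 and Jak3 by only 0.0024 and 0.0022, and 1, Irs2, was lower, with a median of 0.039. At an unadjusted p under 0.05 were 3, all higher: Ptpn6, the phosphatase SHP-1 (150.8 ± 2.46 against 162.4 ± 6.63 FPKM, adjusted p = 0.243), Il2rg, the common gamma chain (73.5 ± 1.70 against 79.2 ± 3.75, adjusted p = 0.301), and Socs1, a feedback inhibitor of JAK kinases (1.44 ± 0.228 against 1.91 ± 0.357, adjusted p = 0.369, all limma).

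Among transcription factors tied to alternative activation, 3 of 10 were higher (Maf, Cebpb and Ppard) and 7 lower, with a median of -0.051. Pparg, a lipid-sensing nuclear receptor, was at 28.2, 27.5 and 26.1 FPKM in Ctrl and 25.2, 25.4 and 25.5 in ZA, without overlap (log2 difference -0.10, SE 0.033, limma adjusted p = 0.284). Myc, which IL-4 induces in human macrophages, was at 3.71 ± 0.415 and 3.04 ± 0.291 FPKM, likewise without overlap (limma adjusted p = 0.301). Egr2, a zinc finger factor, was at 4.60 ± 0.338 and 4.2 ± 0.146 FPKM with overlapping groups (limma adjusted p = 0.474). Irf4, the factor most often set beside STAT6, was below the limit for testing, at 0.753 ± 0.117 and 0.811 ± 0.145 FPKM.

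Further genes that IL-4 or IL-13 induces in macrophages were mostly lower with ZA, 12 of 14 tested, with a median of -0.061, and only Folr2 and Mmp12 were higher. Ear2, an eosinophil-associated ribonuclease, was at 5.46, 5.24 and 4.15 FPKM in Ctrl and 3.39, 3.43 and 3.05 in ZA, from 92 to 163 fragments. Every ZA library was below every Ctrl library, and the log2 difference of -0.47 (SE 0.085) had a limma adjusted p of 0.0785. The summed markers of eosinophils, basophils and mast cells were 6.49, 6.13 and 5.74 FPKM in Ctrl and 4.68, 5.12 and 4.92 in ZA. Within this sum, Prg2 was at 2.18 ± 0.126 FPKM in Ctrl and 1.34 ± 0.238 in ZA, without overlap. It was the only tested marker of that list at an unadjusted limma p under 0.05. Siglecf and Ccr3 were lower with overlapping groups (log2 difference -0.037 and -0.14). Of those under the limit for testing, only Cpa3 had a higher mean with ZA (0.329 against 0.394 FPKM). The part of these cells in the Ear2 values was not tested.

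Cd36, a receptor for oxidized lipoproteins, was at 169.2 ± 3.88 FPKM in Ctrl and 154.9 ± 6.57 in ZA (log2 difference -0.13, SE 0.034, limma adjusted p = 0.194). F13a1, the coagulation factor XIII A chain, was at 11 ± 0.435 and 9.75 ± 0.708 FPKM (limma adjusted p = 0.265), and Cd200r1, an inhibitory receptor, at 67.2 ± 2.40 and 63.2 ± 1.0 (limma adjusted p = 0.304). In these 3 genes the groups did not overlap. The M2 chemokine gene Ccl17 was listed at 0 in all libraries, and Ccl22 and Ccl24 stayed between 0.133 and 0.571 FPKM.

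For IL-10, both receptor chains were well expressed, with Il10rb at 131 ± 2.08 FPKM in Ctrl and 133 ± 3.16 in ZA. Of 13 genes tested 9 were higher and 4 lower (Il1rn, Ddit4, Etv3 and Zfp36), with a median of 0.022. Il1rn, the interleukin-1 receptor antagonist, was at 9.83, 8.72 and 7.42 FPKM in Ctrl and 6.68, 6.76 and 7.0 in ZA (log2 difference -0.30, SE 0.081, limma adjusted p = 0.203). All of its ZA values lay below all of its Ctrl values. Bcl3, a nuclear inhibitor of NF-kappa-B, was at 13.4 ± 0.868 and 14.8 ± 0.313 FPKM (limma adjusted p = 0.284), and Il10ra at 60.6 ± 1.64 and 64.1 ± 1.49 (limma adjusted p = 0.323). The other 2 genes under an unadjusted p of 0.05 were Cd274, which was higher, and Ddit4, which was lower.

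In the TGF-beta list 9 of 18 genes were higher and 9 lower, with a median of -0.012. The 4 lower at an unadjusted limma p under 0.05 included Itgav, the integrin chain that releases active TGF-beta (15.4 ± 0.419 against 14 ± 0.494 FPKM), and Tgfbr1, the type I receptor (35.2 ± 1.31 against 32.4 ± 0.0374), both with an adjusted p of 0.203. Lrrc32, which tethers latent TGF-beta at the surface, was at 1.41 ± 0.327 and 0.992 ± 0.123 FPKM (limma adjusted p = 0.319), and Thbs1, another activator of the latent form, was also lower. Higher were Bmpr2 and Skil. Nrros, the tether typical of myeloid cells, was at 58.9 ± 0.964 and 59.3 ± 1.48 FPKM.

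Arginine and polyamine genes, only some of them downstream of arginase, were lower in 12 of 14 cases and higher for Asl and Ass1, with a median of -0.029. Sms, spermine synthase, was at 9.08 ± 0.374 and 8.35 ± 0.291 FPKM (limma adjusted p = 0.346), and Odc1, ornithine decarboxylase, at 10.6 ± 0.405 and 9.70 ± 0.579 (limma adjusted p = 0.353). The groups did not overlap for either gene. Asl, argininosuccinate lyase, was at 22.1 ± 0.844 and 23.1 ± 0.165 FPKM (limma adjusted p = 0.479). Nos2, which competes with arginase for arginine, was at 0.104 ± 0.0143 and 0.120 ± 0.0432 FPKM from 14 to 29 fragments.

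Genes of haemoglobin and haem handling, the task of Cd163, were higher for 3 of 10 (Blvrb, Bach1 and Ftl1) and lower for 7, with a median of -0.045. Hmox1, haem oxygenase 1, was at 226.3, 216.1 and 214.6 FPKM in Ctrl and 201.8, 196.7 and 199.5 in ZA. The groups did not overlap, and the log2 difference of -0.13 (SE 0.026) had a limma adjusted p of 0.0921. Hp, haptoglobin, was at 10.8, 10.1 and 6.23 FPKM in Ctrl and 5.95, 6.53 and 5.86 in ZA, and Ctrl 3 lay within the range of ZA (log2 difference -0.47, SE 0.16, limma adjusted p = 0.303). Blvrb, a biliverdin reductase, was at 167.6 ± 6.67 and 178.9 ± 4.67 FPKM (limma adjusted p = 0.304).

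**Figure D4:**
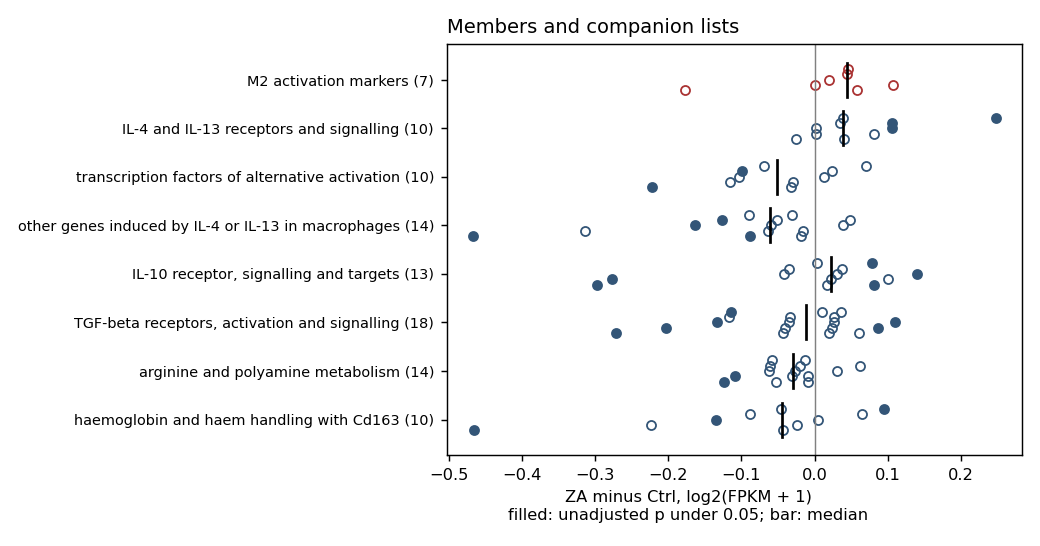
Difference of ZA minus Ctrl on log2(FPKM + 1) for the 7 markers tested (red) and the 89 genes of the companion lists (blue), with the number of genes tested in brackets. Filled points have an unadjusted limma p under 0.05, black bars are medians, and heights within a row only separate the points. None of the red points is filled, and the filled points of the lists number 9 to the right of 0 and 16 to the left.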

How the data were processed

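RNA libraries of 3 Ctrl and 3 ZA cultures were read as 150-base paired ends. The labels name a VAHTS and also a SMARTER kit, and genome build mm9. The aligner, counting program and annotation are not given in the sources used here. The authors deposited FPKM values, fragments scaled by gene length and library total, in 1 table whose separators were lost in all but 11 of 35434 rows. The symbol and its 6 values were separated by how the numbers are written (35175 rows) or, where that was ambiguous, by requiring whole fragments for the gene length and library total (259 rows), and 0 were left out. The 11 intact rows came out identical, and of 5000 simulated rows 4997 were restored, 0 wrongly. Lengths of 13 mitochondrial genes equalled or divided those in RefSeq. This is no independent check, since the library totals were derived from these genes and their RefSeq lengths. Restored rows held 99.71% of each library's fragments, with a median of 1394 per gene tested. FPKM and fragments in whole numbers were computed from the cut rows.

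Groups were taken from the sample titles. ZA was compared with Ctrl by limma 3.58.1 (R 4.3.3, eBayes with a trend, two-sided, no block) on log2(FPKM + 1), over 9800 genes with a mean of at least 1 FPKM, with Benjamini-Hochberg adjustment. On simulated data with 200 of 9800 genes changed 2-fold, 100% of these and 10 unchanged genes were called. Every simulated gene had the same dispersion, set from the median spread over genes. The simulation therefore does not cover changes under 2-fold, or genes of larger spread such as Chil3, Mgl2, Clec10a and Il10. Libraries of a group differed by more than sampling noise (chi-square per gene 3.52 to 9.73). Transcripts were aligned with BLAST+ 2.17.0 to GENCODE M21. The members and lists were chosen with earlier results of these data known. Named are all members, all relatives, and per companion list the 3 genes tested whose moderated statistic was largest. The alternatives tried were another pseudocount (0.1), other limits (none, 5 FPKM), median centring, quantile normalization, no trend, voom on recovered fragments, a replicate block, and each library left out.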

Additional observations from a re-analysis of the deposited data

How the results depend on the processing

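The log2 differences of the 7 markers were recomputed under 14 alternatives, which gave 96 values, since Il10 and Mgl2 fall out at 5 FPKM. None passed an adjusted p of 0.05, the smallest being 0.140 (Chil3 without Ctrl 3), and 87 kept their sign. Il4ra turned to -0.011 with each library centred on its median and -0.010 with quantile normalization. With 1 library left out, Clec10a ranged from -0.032 (without Ctrl 1; -0.0054 without ZA 3) to 0.14, Mgl2 from -0.092 (without ZA 3; -0.0099 without Ctrl 1) to 0.16, and Il4ra from -0.024 (without ZA 1; -0.017 without Ctrl 3 and -0.0064 without Ctrl 1) to 0.027. In the same fits, Mrc1 ranged from 0.021 to 0.076, Chil3 from -0.37 to -0.057, Il10 from 0.018 to 0.19 and Tgfb1 from 0.013 (without Ctrl 3 or ZA 2) to 0.026. With median centring Mrc1 was 0.033 and Tgfb1 0.0076, and with quantile normalization they were 0.049 and 0.013. The cause was not tested.

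Genes called over the whole table, 36, depended on the fit: 1 without the limit on low values, 20 with quantile normalization, 1 without a trend, 132 with voom, and 0 to 25 with 1 library left out (25 without ZA 1, 6 without Ctrl 3, 4 without ZA 3, 1 without Ctrl 1 or Ctrl 2, and 0 without ZA 2, where 557 were higher and 416 lower at an unadjusted limma p under 0.05). Centring changed the split at an unadjusted p under 0.05 from 735 higher and 475 lower to 508 and 664, and quantile normalization to 574 and 589. The counts of higher and lower genes in the companion lists come from the main fit and were not recounted under these alternatives. Some of them rest on differences near 0, such as 0.0051 for Ftl1. Of the companion genes, 0 to 2 were called with 1 library left out (Ear2 and Hp without Ctrl 3) and 1 with voom (Hmox1).

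The replicate block, in a fit where same-numbered libraries were paired, called 78 genes, 2 of them companions (Ear2 and Fn1), and no marker (Chil3 adjusted p = 0.321, Clec10a 0.382). Deviations of same-numbered libraries correlated by 0.284, 0.0393 and 0.280 over genes, and those of libraries with unlike numbers by -0.297 to 0.0334. The best match of each Ctrl library was its own number, but for Ctrl 2 it hardly exceeded that with ZA 3 (0.0334). Nothing in the labels says that a number marks a shared culture. Arg1, Retnla and Cd163, all under the limit for testing, had at most 37 fragments in a library, which limits what can be seen of them.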
